A study of Mus musculus with 2 samples.

Results

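The Bcl2 family decides whether a cell opens its mitochondria and dies or stays alive, and 10 of its mouse genes were followed here in CD8+ T cells from melanoma tumors. They were taken by name from the 32285 genes counted. The 5 survival members were *Bcl2*, *Bcl2l1* (Bcl-xL), *Mcl1* and the A1 genes *Bcl2a1b* and *Bcl2a1d*. The 5 death members were *Bcl2l11* (Bim), *Bax*, *Bak1*, *Bbc3* (Puma) and *Pmaip1* (Noxa). All 10 were detected in both libraries.

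CD8+ tumor-infiltrating lymphocytes (TIL) came from B16 F0 melanomas transplanted into male C57Bl/6J mice aged 16 weeks. One library was made from lean mice on normal chow (NC) and 1 from obese mice given a western diet (WD) for 12 weeks, with tumors taken on day 14. CD8+ cells were enriched on magnetic beads, sorted on CD8 and sequenced from the 3′ end of each transcript with unique molecular identifiers (UMIs). The number of mice behind each library was not given in the sources used here. With 1 library per diet no difference between diets has a replicate check, so values are given with exact 95% intervals, which cover counting error only.

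After cells with 7.5% or more mitochondrial UMIs and those outside 500 to 50000 UMIs were left out, 2456 lean and 2289 obese cells remained, with medians of 7958 and 9103 UMIs per cell. The libraries shared 4 barcodes among all deposited cells. In both libraries all 6 CD8 T cell markers were detected, at 5722 CPM summed in lean and 5009 in obese (CPM, UMIs per 1000000 UMIs of the same cells). Melanoma markers summed to 0.683 and 1.01 CPM, with *Tyr* at 0 in both.

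Survival and death members work by binding each other. The survival proteins hold *Bax* and *Bak1* products, which would otherwise form pores in the outer mitochondrial membrane, and the products of *Bcl2l11*, *Bbc3* and *Pmaip1* are small BH3-only proteins that displace them. In T cells, interleukin 7 signalling is known to uphold *Bcl2* in naive and memory cells, while A1 is induced by antigen receptor and NF-kB signalling. Each of these levels is RNA, and protein was not measured.

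Summed over all kept cells, the A1 genes carried more UMIs than any other survival gene. They also had the widest differences between cell states, and they are near copies of each other. *Bcl2a1b* lies at chr9:89199209-89207827 on the plus strand and *Bcl2a1d* at chr9:88723285-88731914 on the minus strand (GRCm38, GENCODE vM21). Their annotated transcripts matched at 93.9% of aligned positions. Of the 311 stretches of 90 bases in the last 400 bases of each, 34.1% occurred in both genes, so a read from those stretches cannot be assigned to one of them, and the division of UMIs between the pair is uncertain. Their sum is therefore given beside the single values. Reads that match more than 1 copy may have been left uncounted, and the sum would not recover them. A1 levels may therefore be too low, which was not tested. Another copy, *Bcl2a1a*, had 0.503 CPM in lean and 0.557 in obese. *Bcl2a1a* shared 27.0% of such stretches with *Bcl2a1d* but 0.32% with *Bcl2a1b*, so more reads shared with *Bcl2a1a* may be lost from *Bcl2a1d*. The *Bcl2a1b* gene overlaps *Gm29094* on the same strand, so reads may be lost from *Bcl2a1b* too. Which of the pair lost more was not tested. The stretch just upstream of the A1 genes is printed here because both genes varied together across clusters. It comes from RefSeq promoter sequence of GRCm38.p6, at chr9:89199023-89199164 on the plus strand for *Bcl2a1b* and at chr9:88731915-88732050 on the minus strand for *Bcl2a1d*. The *Bcl2a1b* stretch ends short of the GENCODE gene start given above. Capitals mark bases that the other copy lacks or has differently.
Bcl2a1b: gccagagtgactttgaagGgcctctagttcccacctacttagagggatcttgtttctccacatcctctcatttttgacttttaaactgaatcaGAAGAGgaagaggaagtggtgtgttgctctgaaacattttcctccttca
Bcl2a1d: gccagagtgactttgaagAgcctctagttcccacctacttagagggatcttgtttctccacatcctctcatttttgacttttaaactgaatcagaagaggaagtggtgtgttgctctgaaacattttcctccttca
These 142 and 136 bases matched at 135 of 142 aligned positions. Each copy held 1 match to the AP-1 motif TGANTCA, which 3.73% of 32851 RefSeq promoter windows cut to 142 bases also held. In both copies the match was TGAATCA, with A at the open base N, and binding was not tested. Each copy also held 1 match to the ETS motif GGAAGT on either strand, held by 9.99% of windows. Neither copy held the kappa B consensus, present in 3.88% of windows.

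Cells were grouped by expression with the members and all listed pathway genes left out of the genes that drove the grouping, which gave 6 clusters. Cluster 2 was naive- or memory-like (*Lef1*, *Tcf7*, *Ccr7*), cluster 3 effector-like (*Gzmd*, *Gzme*) and cluster 1 proliferating-like (*Stmn1*, *Birc5*, *Cdk1*). Cluster 0 was led by *Gzma*, *Ccl5*, *Gzmk* and interferon-stimulated genes such as *Ifit3* and is called by its number. Cluster 4 was shallow, with a median of 2328 UMIs and 3.63% mitochondrial UMIs. Its leading genes were 4 hemoglobin genes, at 0 in the lean library, and *Gm26917*, and it is also called by its number. The 6 checkpoint markers were highest there, at 1778 CPM summed in lean and 1080.5 in obese, and the 8 proliferation markers summed to 1414 and 1363. Cluster 5 held 30 dendritic-like cells (*Siglech*, *H2-Aa*). The lean and obese cells behind each value numbered 478 and 712 in cluster 0, 482 and 582 in cluster 1, 570 and 427 in cluster 2, 607 and 297 in cluster 3, and 310 and 250 in cluster 4. Median depth in these clusters differed, from 2323 and 2379 UMIs in lean and obese cells of cluster 4, through 7478.5 and 7842 in cluster 2, to 22262.5 and 22824.5 in cluster 1.

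The first question was which survival genes each T cell state used. *Bcl2* and the A1 genes were high in opposite states. Naive- or memory-like cells held the most *Bcl2* and the least A1, and effector-like and proliferating-like cells held the least *Bcl2* and the most A1. *Mcl1* was high everywhere.

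*Bcl2* (chr1:106538178-106714274, minus strand) stood at 261 CPM in lean and 240.5 in obese cells of the naive- or memory-like cluster. In the effector-like cluster it stood at 35.1 and 48.9 CPM, and in the proliferating-like cluster at 23.8 and 36.9. The effector-like over naive- or memory-like log2 ratio was -2.65 over both libraries (95% interval -2.79 to -2.51), -2.90 in lean alone and -2.30 in obese alone. Cluster 0 was between these, at 145 and 155 CPM, and cluster 4 next, at 110.2 and 129, with intervals that overlapped those of cluster 0 in each library.

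A1 ran the other way. *Bcl2a1b* and *Bcl2a1d* summed to 62.6 CPM in lean and 29.6 in obese naive- or memory-like cells, and to 899 and 966 CPM in effector-like cells. The log2 ratio between those states was 4.27 over both libraries (4.12 to 4.42), 3.85 in lean and 5.03 in obese. Proliferating-like cells held 878 and 669 CPM. In the lean library the effector-like and proliferating-like intervals overlapped (879 to 920 against 861 to 895 CPM), whereas in the obese library they were apart (938 to 994 against 656 to 683). *Bcl2a1d* had the widest range of the 10 members over clusters 0 to 4, 103-fold, from 3.94 CPM in obese naive- or memory-like cells, a value of 14 UMIs, to 405 in obese effector-like cells.

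The pair did not keep 1 ratio. *Bcl2a1b* over *Bcl2a1d* was 1.44 (1.37 to 1.51) in lean and 1.39 (1.31 to 1.47) in obese effector-like cells. In naive- or memory-like cells it was 4.51 (3.32 to 6.23) and 6.50 (3.68 to 12.4). *Bcl2a1d* thus had fewer counted UMIs in both states and was further below *Bcl2a1b* in naive- or memory-like cells. Reads shared with other copies may be lost more from *Bcl2a1d*, and reads shared with *Gm29094* from *Bcl2a1b*. Which copy was truly scarcer was not tested. Free RNA was not measured, and its part in these counts was not tested.

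*Mcl1* (chr3:95658788-95663176, plus strand), whose short-lived protein T cells need at every stage, was the most even member. Over clusters 0 to 4 it ranged 1.95-fold, from 216 CPM in lean proliferating-like cells to 420.1 in obese naive- or memory-like cells. *Bcl2l1* (chr2:152780668-152831728, minus strand) was the rarest survival gene over all kept cells, at 12 and 16.5 CPM, and lay between 7.32 and 23.5 over the same clusters, above *Bcl2a1d* in obese naive- or memory-like cells. Because each UMI marks 1 molecule read from its 3′ end, these levels need no scaling by gene length, although capture may differ between genes.

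**Figure D1:**
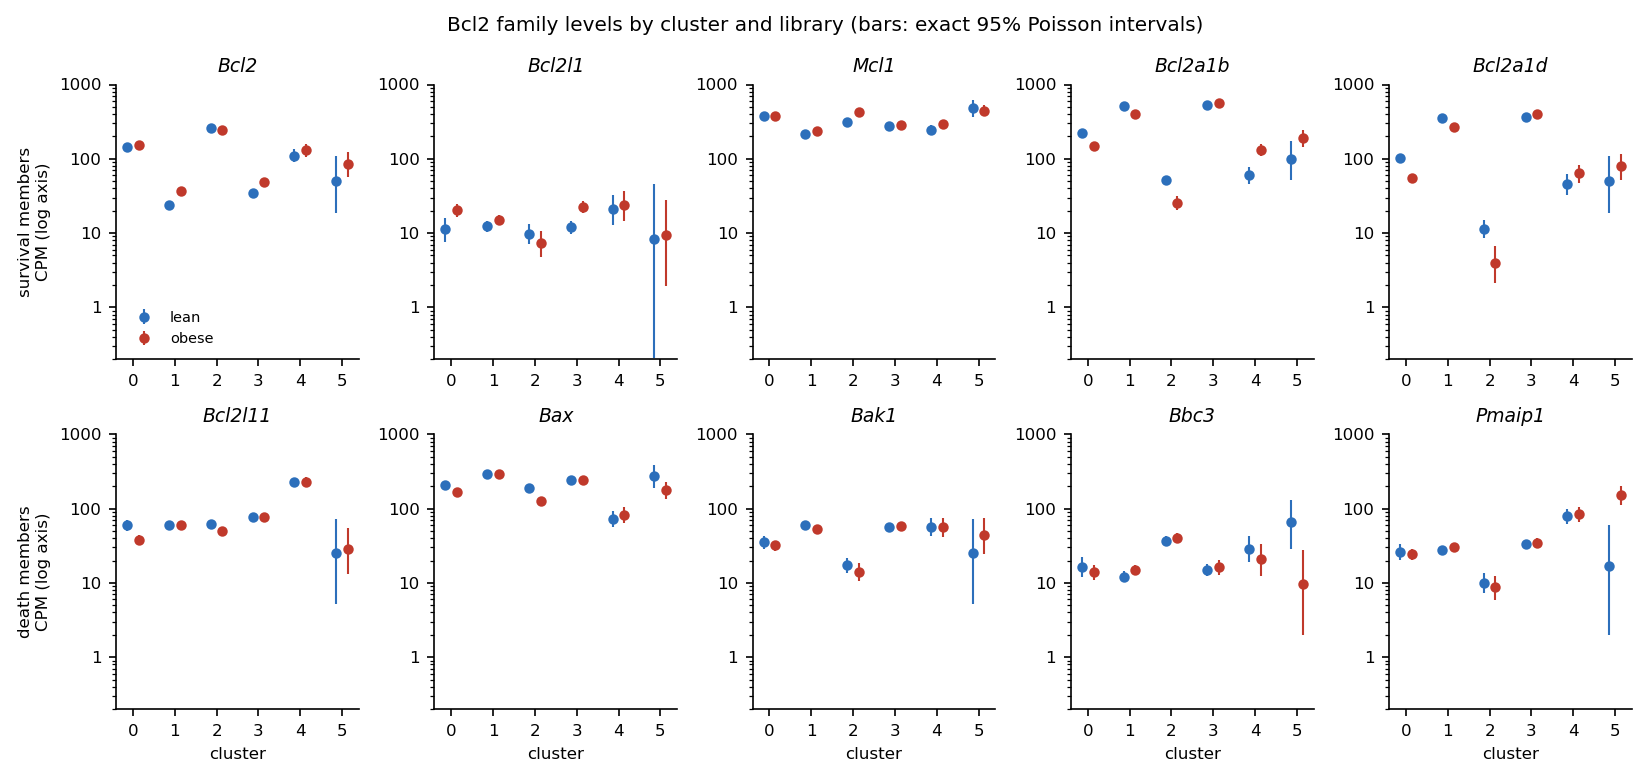
Levels of the 10 members in CPM (log axis) for clusters 0 to 5, with the lean library in blue and the obese library in red, and exact 95% Poisson intervals as bars. *Bcl2* peaks in cluster 2, at 261 and 240.5 CPM, where *Bcl2a1b* and *Bcl2a1d* are lowest, and *Bcl2l11* and *Pmaip1* peak in the shallow cluster 4 among the clusters with over 30 cells.

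Among the death members, the pore formers were higher in effector-like and proliferating-like cells and *Bbc3* was higher in naive- or memory-like cells. *Bak1* (chr17:27019810-27029009, minus strand) stood at 56.7 CPM in lean and 57.6 in obese effector-like cells against 17.1 and 14.1 in naive- or memory-like cells, a log2 ratio of 1.85 (1.58 to 2.13). *Bax* (chr7:45461697-45466898, minus strand), the most abundant death member, stood at 246 CPM in both libraries of the effector-like cluster and at 189 and 125 in the naive- or memory-like cluster, a log2 ratio of 0.61 (0.52 to 0.71). Its highest level was in proliferating-like cells, at 295 and 292 CPM.

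The BH3-only genes differed among themselves. *Bbc3* (chr7:16308393-16318205, plus strand), a p53 target, stood at 36.7 and 40.3 CPM in naive- or memory-like cells and at 15.1 and 16.2 in effector-like cells, a log2 ratio of -1.31 (-1.57 to -1.05). *Pmaip1*, whose product binds Mcl1 and A1 proteins, had the reverse order, at 10 and 8.73 CPM against 33.6 and 34.5, a log2 ratio of 1.84 (1.49 to 2.22). *Bcl2l11* (chr2:128126038-128162547, plus strand), whose product binds every survival protein of the family, stayed between 49.3 and 78.3 CPM over clusters 1, 2 and 3.

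Cluster 4 stood apart in its death members. *Bcl2l11* reached 226 CPM in lean and 229 in obese, a log2 ratio to the naive- or memory-like cluster of 2.01 (1.81 to 2.21), and *Pmaip1* 79.0 and 84.7 CPM. *Bax* was at its lowest there, 72.4 and 82.3 CPM. Low depth and a high mitochondrial share went with these values, and their part in them was not tested. The hemoglobin genes summed to 10774 CPM in obese cells of this cluster.

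Set against all genes, 4 of the 10 members were at least 1 log2 unit higher in effector-like than in naive- or memory-like cells. These were *Bcl2a1b*, *Bcl2a1d*, *Bak1* and *Pmaip1*, where 17% of 7026 genes were higher. *Bcl2a1d* and *Pmaip1*, at 8.08 and 9.45 CPM in naive- or memory-like cells over both libraries, reached the 10 CPM minimum only in effector-like cells. Their entry thus depended on the state where they were high. The near copies *Bcl2a1b* and *Bcl2a1d* were counted separately here, although they are not independent. At least 1 unit lower were *Bcl2* and *Bbc3*, 2 of 10, where 5.19% of genes were. The median log2 ratio was 0.74 for the members and 0.35 for all genes tested.

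At a finer grouping into 13 clusters, the broad states kept their order for *Bcl2* and A1. Finer cluster 1, mostly naive- or memory-like, held 270.4 and 264 CPM of *Bcl2* with 71.4 and 35.2 of A1, and finer cluster 6, of the same state, 214 and 202 with 31.6 and 20.4. Finer cluster 4, mostly proliferating-like, held 20.4 and 30.9 CPM of *Bcl2* with 869.5 and 629 of A1. Between them lay finer cluster 8, led by interferon-stimulated genes, with 85.2 and 134 CPM of *Bcl2* and 521 and 191 of A1.

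**Figure D2:**
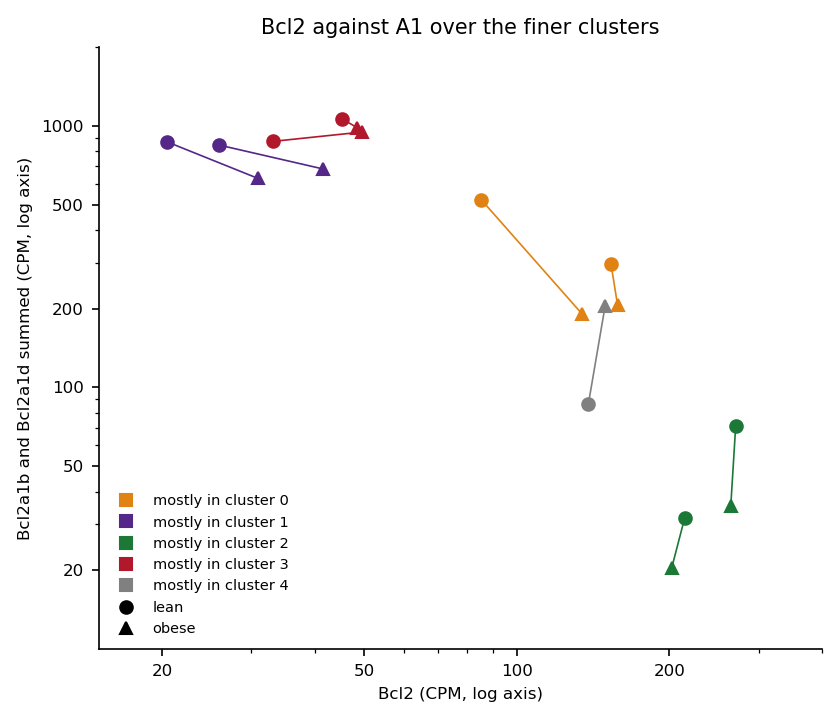
*Bcl2* against summed *Bcl2a1b* and *Bcl2a1d*, both in CPM on log axes, for the finer clusters with at least 50 cells in each library; circles are lean, triangles obese, and a line joins the same cluster. The naive- or memory-like clusters sit at the lower right, near 270.4 CPM of *Bcl2* and 71.4 of A1 in lean, and the proliferating-like ones at the upper left, near 20.4 and 869.5.

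Single cells were also scored for a UMI of *Bcl2*, of A1 or of both, after each was thinned to 2000 UMIs. Cells with A1 only made up 70.3% of lean effector-like cells (66.5 to 73.9) and 68.0% of obese ones (62.4 to 73.3), whereas cells with *Bcl2* only made up 1.49% and 2.02%. In naive- or memory-like cells the shares were 5.44% and 3.28% with A1 only, and 38.4% and 35.6% with *Bcl2* only. Both together were seen in 4.46% and 4.04% of effector-like and 3.68% and 1.41% of naive- or memory-like cells. Without thinning, both were seen in 25.5% and 39.1% of effector-like and 19.8% and 11.7% of naive- or memory-like cells, so these shares depend on depth. Likewise, the A1-only shares were 71.0% and 59.3% in effector-like cells at median depths of 11173 and 14051 UMIs, and 5.96% and 6.09% in naive- or memory-like cells at 7478.5 and 7842. No cell type that lacks both genes was at hand, so the lowest share of each gene is the nearest measure of background.

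Over the 10 profiles made by clusters 0 to 4 and the 2 libraries, Pearson's r of log2(CPM + 1) between *Bcl2* and *Bcl2a1b* was -0.88, and between *Bcl2a1b* and *Bcl2a1d* 0.98. Among 4332 genes with at least 50 CPM in 1 profile, those most like *Bcl2* were *Sidt1* (0.98), *Foxp1* (0.98) and *Ssh2* (0.98). Most like *Bcl2a1b* were *Rab10* (0.98), *Bcl2a1d* (0.98) and *Actg1* (0.98), and most like *Mcl1* were *Rgcc* (0.96), *Saraf* (0.96) and *Gadd45g* (0.94). *Mapkap1* (0.97), *Pitpnm2* (0.97) and *Snhg20* (0.97) were most like *Bcl2l11*, the profile of cluster 4 included. These profiles share libraries and differ in depth, so the values are a description.

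The second question was how survival and death transcripts balanced. Survival members made up 67.1% to 75.3% of the members' UMIs in clusters 0 to 3, although the genes behind that part differed from state to state. Over all kept cells they held 71.3% of 40180 member UMIs in lean (70.9 to 71.8) and 70.6% of 38046 in obese (70.1 to 71.0). A1 alone held 46.5% and 40.4%, *Mcl1* 18.5% and 22.3%, *Bax* 17.1% and 17.7%, and *Bcl2* 5.53% and 6.70%.

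By state, the survival share was 74.1% in lean and 75.3% in obese effector-like cells and 71.3% and 68.0% in proliferating-like cells. Naive- or memory-like cells held 67.1% and 74.6%, and cluster 0 71.3% and 73.2%. Cluster 4 was lowest, at 51.1% and 57.4%. In effector-like cells A1 made up 54.3% and 55.1% of member UMIs and *Bcl2* 2.12% and 2.79%. In naive- or memory-like cells A1 made up 6.52% and 3.16%, *Bcl2* 27.2% and 25.7%, and *Mcl1* 32.4% and 44.9%. With the A1 genes left out of the sum, the survival share over all kept cells was 46.4% in lean and 50.7% in obese. With each cluster weighted by its share of the pooled cells it was 69.5% and 71.0%.

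**Figure D3:**
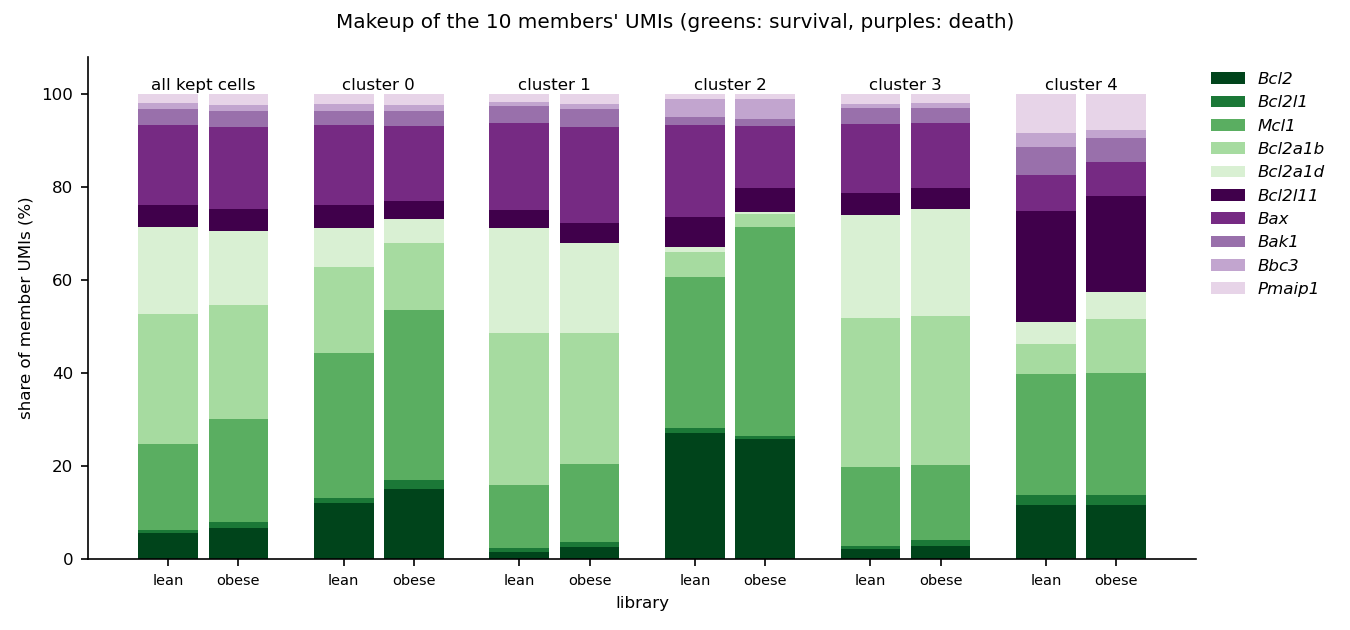
Share of the 10 members' UMIs held by each member, in percent, for all kept cells and clusters 0 to 4, lean beside obese, with survival members in greens and death members in purples. The green part is near 71.3% in lean over all cells and falls to 51.1% in lean cluster 4, while its makeup turns from *Bcl2* and *Mcl1* in cluster 2 to A1 in clusters 1 and 3.

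Pairs known to bind each other gave a finer view. *Bcl2l11* over *Bcl2* was 0.238 (0.208 to 0.271) in lean and 0.205 (0.173 to 0.241) in obese naive- or memory-like cells, so *Bcl2* UMIs outnumbered those of *Bcl2l11*. In effector-like cells *Bcl2l11* outnumbered *Bcl2*, at 2.23 (1.93 to 2.57) and 1.6 (1.35 to 1.90), and in proliferating-like cells at 2.54 (2.20 to 2.93) and 1.63 (1.46 to 1.82). Against A1 the order was reversed. *Bcl2l11* over A1 was 0.0869 and 0.0810 in effector-like cells, with overlapping intervals, and 0.993 (0.838 to 1.18) and 1.67 (1.30 to 2.14) in naive- or memory-like cells.

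*Pmaip1* over *Mcl1* was 0.12 and 0.121 in effector-like cells and 0.0323 and 0.0208 in naive- or memory-like cells, with overlapping intervals between libraries in both states. *Bax* UMIs exceeded those of *Bak1* in every cluster with over 30 cells, 11-fold and 8.88-fold in naive- or memory-like cells, 4.34-fold and 4.27-fold in effector-like cells and 1.27-fold and 1.46-fold in cluster 4, where both intervals reached below 1.

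**Figure D4:**
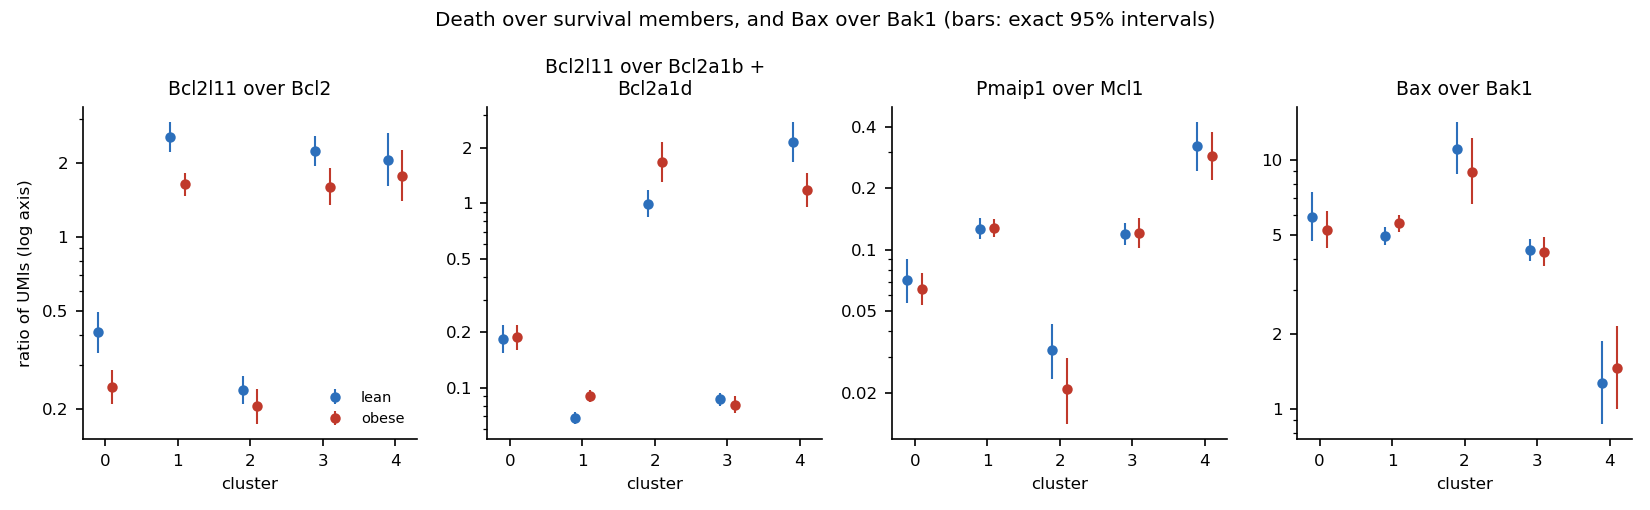
Ratios of UMIs on log axes for 4 pairs of members in clusters 0 to 4, lean in blue and obese in red, with exact 95% intervals. *Bcl2l11* over *Bcl2* is 2.54 in lean and 1.63 in obese cells of cluster 1 but 0.238 and 0.205 in cluster 2, and *Bcl2l11* over A1 has the opposite order.

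The third question was how the obese library differed from the lean one. Over all kept cells the differences were small: A1 was lower in obese and the 3 other survival genes were higher. *Bcl2a1b* stood at 402 CPM in lean and 323 in obese, a log2 ratio of -0.32 (-0.36 to -0.28), and *Bcl2a1d* at 270.0 and 212, a log2 ratio of -0.35 (-0.40 to -0.30). *Bcl2l1* had the largest rise in ratio, from 12 to 16.5 CPM (0.46, 0.26 to 0.67). *Bcl2* went from 79.9 to 88.8 CPM (0.15, 0.07 to 0.23) and *Mcl1* from 267 to 295 (0.14, 0.10 to 0.19). With each cluster weighted by its share of the pooled cells, the ratios of *Bcl2a1b* and *Bcl2a1d* were -0.19 and -0.20. Weighted in the same way, *Bcl2l1* had 0.46, *Bcl2* 0.08 and *Mcl1* 0.16. With cells thinned to 2000 UMIs, *Bcl2l1* fell to 0.16, with *Mcl1* at 0.16 and *Bcl2* at -0.03. *Pmaip1* then had the largest rise, at 0.23. These thinned ratios have no intervals, so their order is uncertain. As a mean over cells without thinning, *Bcl2l1* had 0.41. Thinning also left out 238 shallow cells and gave the rest equal weight, so the part of depth in this change was not tested.

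Death members differed by less than A1. *Bcl2l11* was at 71.0 CPM in lean and 62.5 in obese (-0.18, -0.28 to -0.09), *Bax* at 248 and 234 (-0.08, -0.13 to -0.03) and *Bak1* at 49.3 and 45.0 (-0.13, -0.24 to -0.02). *Bbc3*, at 18.2 and 18.3 CPM, and *Pmaip1*, at 27.9 and 30.1, had intervals that included 0. Summed, the survival members went from 1030.5 to 935 CPM (-0.14, -0.16 to -0.12) and the death members from 414 to 390.0 (-0.09, -0.12 to -0.05). Both sums turned positive, at 0.01 and 0.06, when given as mean UMIs per cell. No member of 10 was 0.5 or more higher or lower in obese on the log2 scale, where 2.51% of 7064 genes were higher and 1.84% lower.

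Within clusters the differences were larger and were not the same from state to state. A1 was lower in obese in clusters 0, 1 and 2, and slightly higher in the effector-like cluster. In the shallow cluster 4 it was higher in obese, at 106 CPM summed in lean and 194 in obese (0.88, 0.50 to 1.25), with *Bcl2a1b* at 60.1 and 131 (1.12, 0.64 to 1.62). Naive- or memory-like cells held 51.2 CPM of *Bcl2a1b* in lean and 25.6 in obese (-1.0, -1.37 to -0.64) and 11.4 and 3.94 of *Bcl2a1d* (-1.53, -2.49 to -0.65). Cluster 0 held 222 and 148 CPM of *Bcl2a1b* (-0.58, -0.74 to -0.42) and 102 and 54.7 of *Bcl2a1d* (-0.89, -1.14 to -0.65). In that cluster the 8 interferon-stimulated markers summed to 1017 CPM in lean and 791 in obese, and their part in the A1 values was not tested.

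Proliferating-like cells held 519 and 398 CPM of *Bcl2a1b* (-0.38, -0.44 to -0.33) and 359 and 271 of *Bcl2a1d* (-0.41, -0.47 to -0.34). Effector-like cells held 530.2 and 561 CPM of *Bcl2a1b* (0.08, 0.01 to 0.15) and 369 and 405 of *Bcl2a1d* (0.13, 0.05 to 0.22). The libraries divided differently over the finer effector-like clusters: finer cluster 2 (led by *Gzmd*) had 503 lean and 169 obese cells, and finer cluster 7 (led by *Cd81* and *Penk*) 99 and 132. The summed A1 log2 ratio was 0.12 in the former and -0.11 in the latter. The 9 effector markers summed to 8896 CPM in lean and 4814 in obese effector-like cells, beside A1 at 899 and 966, and their part in the A1 values was not tested.

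*Bcl2* was higher in obese proliferating-like cells (0.63, 0.42 to 0.85) and effector-like cells (0.48, 0.22 to 0.74), the states where it was scarce, while the intervals included 0 in cluster 0 and the naive- or memory-like cluster. *Bcl2l1* went from 12 to 22.6 CPM in effector-like cells (0.91, 0.50 to 1.33) and from 11.3 to 20.2 in cluster 0 (0.84, 0.24 to 1.47), the latter from 30 and 105 UMIs. The libraries divided differently over the finer effector-like clusters, and the part of this in the *Bcl2* and *Bcl2l1* values was not tested. *Mcl1* went from 311 to 420.1 CPM in naive- or memory-like cells (0.44, 0.33 to 0.54) and differed by 0.12 or less elsewhere among clusters 0 to 3.

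Among the death members, *Bax* and *Bcl2l11* differed in cluster 0 and the naive- or memory-like cluster. *Bax* went from 189 to 125 CPM in naive- or memory-like cells (-0.60, -0.77 to -0.43) and from 206 to 167 in cluster 0 (-0.30, -0.45 to -0.14). *Bcl2l11* went from 59.3 to 38.1 CPM in cluster 0 (-0.64, -0.95 to -0.33) and from 62.1 to 49.3 in naive- or memory-like cells (-0.33, -0.62 to -0.06). In proliferating-like cells *Bak1* went from 59.5 to 52.7 CPM (-0.18, -0.33 to -0.02), and *Bbc3* stood at 12.2 and 15.1 (0.31), with an interval that included 0. In effector-like cells every death member had a log2 ratio of at most 0.10 in size, with intervals that included 0. The 2 finer naive- or memory-like clusters, which held different shares of the libraries (452 lean and 225 obese cells, and 121 and 202), gave -0.60 and -0.36 for *Bax* and 0.28 and 0.26 for *Mcl1*.

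Read against all genes, cluster 0 had 1 member of 10 (*Bcl2l1*) at least 0.5 higher in obese, where 6.36% of 6977 genes were, and 3 (*Bcl2a1b*, *Bcl2a1d*, *Bcl2l11*) at least 0.5 lower, where 3.9% were. The proliferating-like cluster had 1 higher (*Bcl2*) against 3.3% of 6901 genes and 0 lower against 2.54%. Naive- or memory-like cells had 0 of 9 members higher against 5.79% of 6371 genes and 3 lower (*Bcl2a1b*, *Bcl2a1d*, *Bax*) against 4.63%, *Bcl2l1* being too low to enter. *Bcl2a1d*, at 11.4 CPM in lean and 3.94 in obese cells there, entered through the lean library alone. Effector-like cells had 1 higher (*Bcl2l1*) against 8.48% of 6973 genes and 0 lower against 4.7%. In cluster 0 and the naive- or memory-like cluster the near copies *Bcl2a1b* and *Bcl2a1d* were counted separately, although they are not independent.

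**Figure D5:**
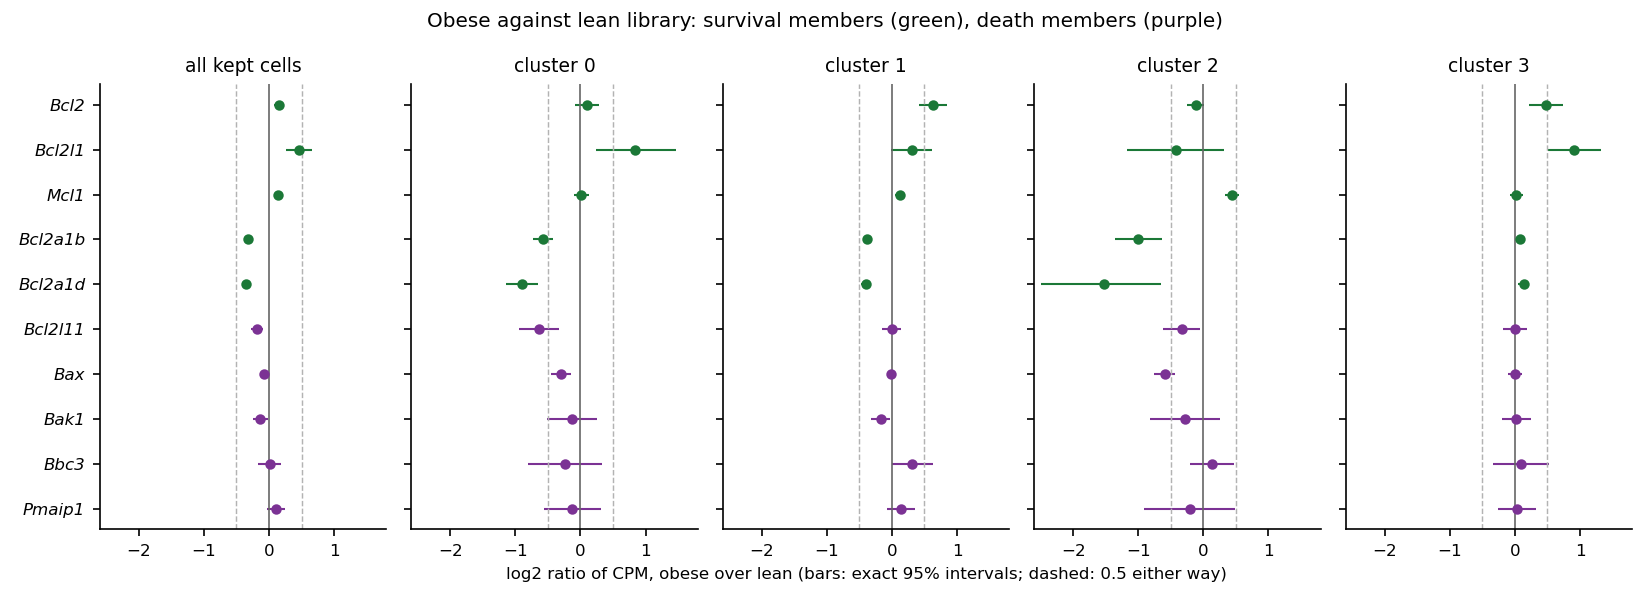
Log2 ratio of CPM, obese over lean, of each member in all kept cells and in clusters 0 to 3, with exact 95% intervals as bars, dashed lines at 0.5 either way, survival members in green and death members in purple. *Bcl2a1b* and *Bcl2a1d* lie left of 0 in clusters 0, 1 and 2, at -1.0 and -1.53 in cluster 2, and just right of it in cluster 3, at 0.08 and 0.13.

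Other genes of the family and of the pathways upstream, beside and downstream of the members were listed by pathway. Of 48 such genes with enough UMIs, 3 were at least 0.5 higher in obese over all kept cells, beside 2.51% of all genes, and 1 was lower, beside 1.84%, and their median log2 ratio was 0.08 against 0.04 for all genes. *Trib1*, a pseudokinase, went from 6.90 to 10.7 CPM (0.64, 0.37 to 0.90) and *Birc2*, an inhibitor of apoptosis, from 72.0 to 110 (0.61, 0.53 to 0.70). *Trib1* reached the 10 CPM minimum in the obese library alone, so its place among the 3 depended on the value reported. The lowest ratios were those of *Jak3*, which carries interleukin 7 and 15 signals, from 34.1 to 23.3 CPM (-0.55, -0.69 to -0.41), and *Cflar*, which blocks caspase 8, from 69.1 to 56.6 (-0.29, -0.38 to -0.19).

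Of the genes listed for the NF-kB path, its inhibitors *Tnfaip3* and *Nfkbia* among them, 7 of 7 had ratios above 0 over all kept cells. Of all genes, 4079 of 7064 did. Their median was 0.26, and 1 of them passed 0.5, *Tnfaip3*, from 268 to 389 CPM (0.54, 0.50 to 0.58). In effector-like cells, where the A1 ratios were 0.08 and 0.13, *Rel* and *Nfkbia* had ratios of 0.95 and 0.88. Summed A1 was lower in obese elsewhere, at -0.33 over all kept cells and -0.67, -0.39 and -1.08 in clusters 0, 1 and 2. Ratios of *Rel* and *Nfkbia* in clusters 0, 1 and 2 are not given, nor those of the other listed genes in any cluster. Whether they followed A1 across clusters is thus not shown, and a link of these genes to A1 was not tested. *Foxo1*, a regulator of *Bcl2l11* and *Bbc3*, went from 31.5 to 41.1 CPM (0.38, 0.26 to 0.51), and *Trp53*, which drives *Bbc3*, *Pmaip1* and *Bax*, from 71.5 to 91.4 (0.35, 0.27 to 0.44). The stress factors *Atf4* and *Ddit3* had ratios of 0.38 and 0.32. Of the genes that act on Mcl1 protein, *Huwe1* had a ratio of 0.05 and *Usp9x* 0.20.

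For the cytokine path that upholds *Bcl2*, *Il7r* stood at 92.9 and 94.9 CPM (0.03, -0.05 to 0.11), *Il2rb* at 279 and 252 and *Stat5b* at 22.4 and 23.5. Downstream of *Bax* and *Bak1*, *Apaf1* stood at 16.5 and 18.1 CPM and *Cycs* (cytochrome c) at 318 and 285. Of the rest of the family, *Bad* stood at 29.7 and 29.4 CPM, near the level of *Pmaip1*, and *Bid* at 10.8 and 12.2. The genes *Bcl2l2*, *Bik*, *Bmf*, *Bok*, *Bcl2a1a* and *Bcl2a1c* were each under 5 CPM in both libraries, and *Hrk* and *Bcl2l10* had no UMI, which allows up to 3 UMIs in each library.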

How the data were processed

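The authors deposited, for each library, a table of raw UMI counts per gene and cell, made with Cell Ranger 6.0.2 against mm10 per the submitters' processing notes. The libraries held 27815785 lean and 28705830 obese UMIs after the filter given above, which uses the limits in the study's methods. The study gives 5320 cells as the number after its own filtering, and 5320 cells were deposited. Of these, 575 lay outside the limits and were left out here, so the cells kept are not the study's set. The members and pathway lists were chosen with earlier results of these data known. The 10 members were all named, with the 2 highest and 2 lowest pathway genes, those said to feed a member, and the 3 genes most like *Bcl2*, *Bcl2a1b*, *Mcl1* and *Bcl2l11*.

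Cells were clustered in Seurat 5.3.0 (2000 variable genes without members, pathway genes or genes of the study's panels, 20 principal components, 20 neighbours, resolution 0.15, and 0.8 for the finer clusters), without integration. Scrublet, run through scanpy 1.11.5, marked 2 of 4745 cells, too few to have worked, so no doublet was removed. UMIs were summed per library and cluster with numpy 2.4.6 and scipy 1.17.1. CPM had exact Poisson intervals, shares Clopper-Pearson intervals and ratios exact conditional binomial intervals. The ratio intervals were run on counts drawn with Poisson error, the error they assume. That check cannot show how they do when cells vary. No p-value was computed, since cells are not replicates. Genes entered the comparison with all genes at 10 CPM or more in at least 1 side of the comparison and 20 UMIs or more in all. The sides were the libraries or, for cell states, the clusters summed over both libraries. A gene could thus enter through its higher side alone. Sequences were aligned with Biopython 1.88, and 99.6% of gene identifiers were found in GENCODE vM21. TMM factors came from edgeR 4.0.16.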

Additional observations from a re-analysis of the deposited data

Results flagged for a closer look

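The A1 values were slightly higher in obese in the effector-like cluster and lower in clusters 0, 1 and 2. The log2 ratio of obese over lean of *Bcl2a1b* was 0.081 in the effector-like cluster but -0.58 in cluster 0, -0.38 in the proliferating-like and -1.0 in the naive- or memory-like cluster. *Bcl2a1d* had 0.13 against -0.89, -0.41 and -1.53, and their sum 0.10 against -0.67, -0.39 and -1.08. The effector-like values were near 0, with an interval of 0.01 to 0.15 for *Bcl2a1b*. The sign of summed A1 also differed between the finer effector-like clusters led by *Gzmd* and by *Cd81*, over which the libraries divided differently. The shallow cluster 4 went the same way as the effector-like one, at 1.12 for *Bcl2a1b*, 0.48 for *Bcl2a1d* and 0.88 for their sum. With 1 library per diet, the difference between clusters was not tested.

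Cells outside the filters also carried the members. Survival members held 50% of the members' UMIs in the 158 lean cells with 7.5% or more mitochondrial UMIs (44.2 to 55.8) and 49.3% in the 213 obese ones (45.2 to 53.4), and *Bcl2l11* stood at 271 and 237 CPM there. In the cells with 50000 or more UMIs, 83 lean and 121 obese, the survival share was 71.7% (70.8 to 72.6) and 67.0% (66.2 to 67.8).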

How the results depend on the processing

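Summed survival members had a log2 ratio of obese over lean of -0.18 with TMM scaling, -0.11 as a mean over cells, 0.0074 as mean UMIs per cell, -0.18 thinned to 2000 UMIs, -0.17 with all deposited cells, -0.024 with clusters weighted by their share of the pooled cells, and 0.14 as the median of the members. Summed death members had -0.13, -0.15, 0.061, -0.16 and -0.033 under the first 5 of these. The survival share was 70.8% in lean when thinned, 71.8% in lean without clusters 4 and 5 (chosen after seeing the data), 69.4% in obese with all deposited cells, 69.5% in lean when clusters were weighted (71.0% in obese, so that obese was then the higher), 64.8% and 62.1% in lean and obese without *Mcl1*, and 46.4% and 50.7% without the A1 genes. The effector-like over naive- or memory-like log2 ratio of *Bcl2* was -3.02 without mitochondrial and ribosomal protein genes in the total, -1.84 as mean UMIs per cell, -2.88 thinned, -2.82 at the finer grouping, -2.90 in lean and -2.30 in obese. For A1 these were 3.89, 5.08, 4.47, 3.94, 3.85 and 5.03. Single members other than *Bbc3* changed sign in 4 instances. *Bak1* went to 0.018 as a mean over cells and 0.015 as mean UMIs per cell. *Bax* went to 0.066 as mean UMIs per cell, and *Bcl2* to -0.027 thinned. *Bbc3*, whose interval included 0, ranged from -0.08 to 0.16 and changed sign too. Of 176 values, 118 moved by less than their counting interval, and the cause of each change was not tested. No paired analysis was possible because each diet had 1 library. Depth limited the rarest values most, such as *Bcl2a1d* in obese naive- or memory-like cells, with 14 UMIs.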

Other observations

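The 30 dendritic-like cells of cluster 5, 9 lean and 21 obese, entered none of the comparisons of T cell states. They were part of the values over all kept cells. Without clusters 4 and 5, a setting chosen after seeing the data, the log2 ratio of *Pmaip1* was 0.04, against 0.11 over all kept cells. *Mcl1* was their leading member, at 483 CPM in lean (367 to 625) and 442 in obese (372 to 522). *Pmaip1* stood at 16.7 CPM in lean (2.02 to 60.2), from 2 UMIs, and at 153 in obese (113 to 202), from 48 UMIs, a log2 ratio of 3.19 (1.26 to 6.28). *Bbc3* stood at 66.7 CPM in lean (28.8 to 131) and 9.54 in obese (1.97 to 27.9), from 8 and 3 UMIs. The survival share was 62.9% (54.0 to 71.1) and 66.1% (61.2 to 70.9). The 6 dendritic markers summed to 6225 CPM in the lean and 14263 in the obese cells of this cluster, and the 5 myeloid markers to 2133 and 346.5. The 6 CD8 T cell markers summed to 2017 and 2493 CPM there, so T cell RNA was present too. The part of myeloid and T cell RNA in these values was not tested.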
